A study of Homo sapiens with 6 samples.

Results

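AP-1 is a transcription factor built as a dimer of basic leucine zipper proteins, and the genes described here encode 10 of its subunits: the Jun proteins (JUN, JUNB, JUND), the Fos proteins (FOS, FOSB, FOSL1, FOSL2) and the related factors ATF3, BATF3 and JDP2. They were chosen as members of the family, by symbol and not by a threshold on their values. Earlier results of these data were known at that time. All 10 symbols occur among the 56638 gene rows of the count tables, and all 10 passed the filter on low counts, which kept 14897 genes. Total RNA was sequenced from cells that the labels call SW480, an established human line from a colorectal adenocarcinoma, at passage 16 to 19. The control group (3 libraries) was left untreated, and the TGFB1 group (3 libraries) had been given TGF-β1 at 10 ng/ml repeatedly. The sources used here do not give the total time. Both groups grew in the same serum-containing medium. The labels do not state whether each library had its own culture, so the p-values reflect the spread between these 6 libraries, which may be technical.

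Jun proteins can pair with each other or with Fos proteins, whereas Fos proteins need a Jun partner to bind DNA. The dimers recognise the palindrome-like element TGACTCA, and dimers with ATF-type partners prefer the longer TGACGTCA. Kinases of the MAPK cascades switch some of these genes on within minutes of a stimulus and phosphorylate some of the proteins. TGF-β signalling reaches AP-1 both through MAPK branches and through SMAD3, which can sit beside AP-1 on shared target genes.

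The libraries held 13012898 to 16005222 counts in genes. Levels are given as CPM, read counts relative to the library total after TMM scaling, in counts per 1000000, at which 1 read was worth 0.0611 to 0.0755 CPM. The keratin gene KRT8, a marker of simple epithelium, stood at 1711 ± 1.33 CPM in control libraries (SD, n = 3). Of 15 colorectal epithelial markers, however, only 6 could be tested, of which EPCAM, KRT18, CDH1 and AXIN2 fell with TGF-β1, LGR5 rose and KRT8 did not pass. CDH1 passed the filter on low counts only through control libraries and LGR5 only through TGFB1 libraries, which partly set their direction. The intestinal factors CDX2 and ASCL2 had 0 counts in all 6 libraries, so most markers of intestinal epithelium were absent or nearly so in the labelled line. Immune markers summed to 1.77 to 3.36 CPM in any library, with PTPRC at 0 counts. Endothelial markers summed to 0.856 to 3.47 CPM, with PECAM1 at 0 counts and 1 of 6 tested, VWF, which fell. VWF too passed the filter only through control libraries.

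In cells given TGF-β1, 6 of the 10 AP-1 subunit genes were higher than in control cells, 3 were lower and 1 did not pass the test (edgeR's quasi-likelihood test, Benjamini-Hochberg adjusted p under 0.05 over all 14897 genes). Across all tested genes 47.3% changed, 23.4% upward and 23.9% downward. The rises were in JUN, JUNB, BATF3, FOSL1, FOSB and JDP2, and the falls in FOS, JUND and FOSL2. ATF3 was the gene that did not pass. JUN and JUNB stood apart in size, each about 4-fold higher, and the falls stayed under 2-fold, from 1.20-fold in FOSL2 to 1.87-fold in FOS. In 9 of the 10 genes the 3 TGFB1 libraries lay entirely on one side of the 3 control libraries, against 54.2% of all tested genes. The median log2 fold change of the 10 genes was 0.54, beside 0.00033 over all tested genes.

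**Figure D1:**
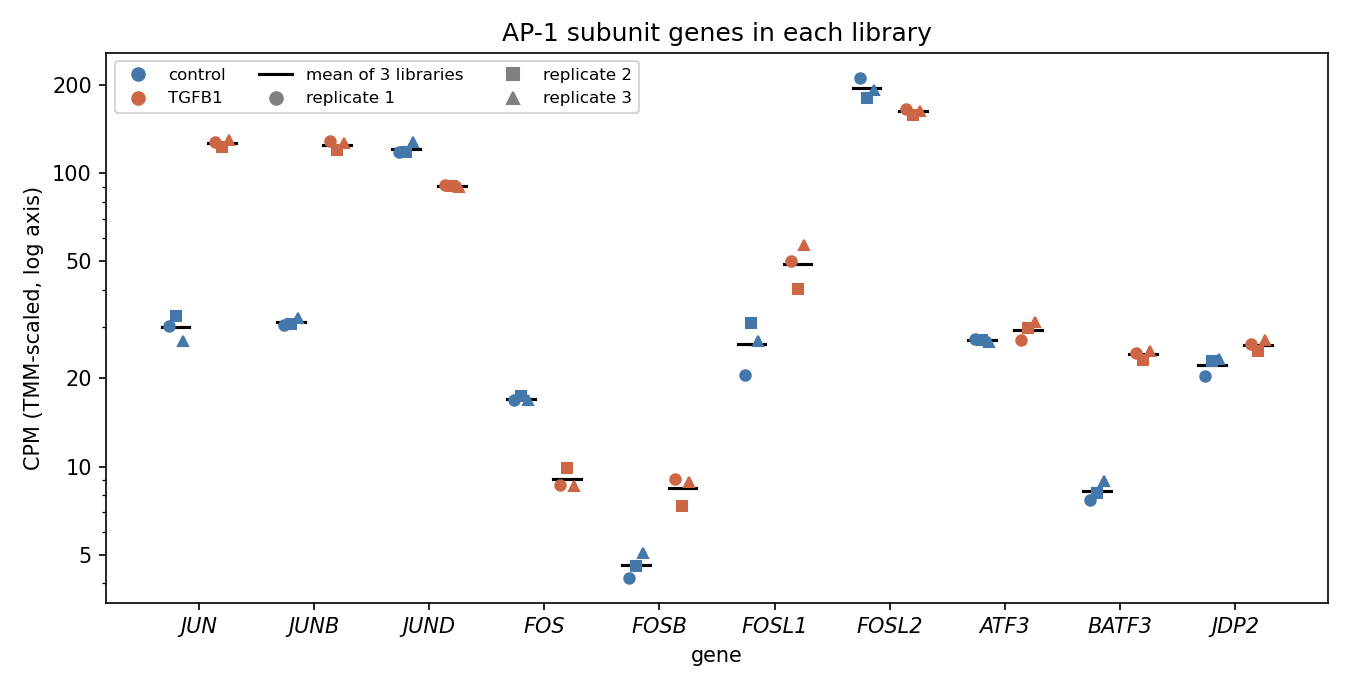
CPM (TMM-scaled, log axis) of the 10 AP-1 subunit genes in each library. Blue points are control and orange points TGFB1 libraries, the shape gives the replicate number and the black bar the mean of 3 libraries. The groups overlap in ATF3 and in no other of the 10 genes, and FOSL1 shows the widest spread within both groups.

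Members of the same family moved in opposite directions, and a link to promoter sequence was not tested. The 250 bases before the start sites of 5 Jun and Fos genes are set side by side here. They come from RefSeq on GRCh38.p14, a later build than the hg19 of the submitters' processing notes. They are reference sequence, written 5′ to 3′ on the gene's own strand, and not read from these cells. Capitals mark TGACATCA, TGACGTCA and TGACGT, searched on both strands, the last of which lies inside TGACGTCA. Both JUN and JUNB rose about 4-fold, JUND and FOS fell, and FOSB rose.
JUN (chr1:58784048-58784297, - strand): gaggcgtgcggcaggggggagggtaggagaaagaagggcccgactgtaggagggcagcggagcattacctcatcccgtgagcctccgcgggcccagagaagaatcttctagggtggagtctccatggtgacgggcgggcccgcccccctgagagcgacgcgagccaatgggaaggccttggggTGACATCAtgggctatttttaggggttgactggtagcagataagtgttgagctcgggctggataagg
JUNB (chr19:12791236-12791485, + strand): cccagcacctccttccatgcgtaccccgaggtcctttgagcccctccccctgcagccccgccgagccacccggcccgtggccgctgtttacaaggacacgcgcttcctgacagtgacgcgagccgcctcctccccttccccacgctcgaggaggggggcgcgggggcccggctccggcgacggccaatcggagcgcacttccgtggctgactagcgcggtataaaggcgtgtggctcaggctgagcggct
JUND (chr19:18281623-18281872, - strand): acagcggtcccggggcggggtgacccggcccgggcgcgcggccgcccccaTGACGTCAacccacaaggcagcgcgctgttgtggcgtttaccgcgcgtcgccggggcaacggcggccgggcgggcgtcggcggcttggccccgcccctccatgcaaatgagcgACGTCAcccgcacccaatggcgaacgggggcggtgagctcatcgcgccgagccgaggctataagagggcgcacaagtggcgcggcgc
FOS (chr14:75278578-75278827, + strand): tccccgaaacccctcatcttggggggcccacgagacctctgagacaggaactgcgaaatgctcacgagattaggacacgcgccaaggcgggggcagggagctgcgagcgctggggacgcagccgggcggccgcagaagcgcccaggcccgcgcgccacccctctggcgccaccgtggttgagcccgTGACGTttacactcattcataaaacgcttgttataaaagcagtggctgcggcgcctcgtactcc
FOSB (chr19:45467746-45467995, + strand): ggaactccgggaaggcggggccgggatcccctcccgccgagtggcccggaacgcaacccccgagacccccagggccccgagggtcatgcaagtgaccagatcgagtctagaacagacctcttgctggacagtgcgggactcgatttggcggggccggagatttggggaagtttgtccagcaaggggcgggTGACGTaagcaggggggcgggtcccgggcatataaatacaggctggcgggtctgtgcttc

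RefSeq gave start-site windows of 300 bases (250 before and 50 after the start) for 8 of the 10 genes. Of 35116 such windows, 2.61% hold TGACATCA, 1.85% hold TGACGTCA, 4.95% hold TGACTCA and 7.98% hold TGACGT. JUN holds TGACATCA with its first base 67 bases before the start, a variant of the AP-1 element long known in this promoter as a site through which JUN acts on its own gene. ATF3 also holds TGACATCA, in the first of 2 windows. The JUND window holds TGACGTCA and, nearer the start, 1 further TGACGT on the other strand. FOS and FOSB each hold TGACGT, at 64 and 60 bases before the start. The windows of FOSL2 and JDP2 hold TGACGT too, and that of FOSL2 also holds TGACTCA just after the start. The window of JUNB holds none of these 4 motifs. The CArG box, to which SRF binds, occurs in 1.29% of all windows and in none of these 8 genes' windows. Sites further than 250 bases before the start lay outside the search, so a miss covers the window alone. CAGAC, a SMAD-binding motif, occurs in 45.3% of all windows and in windows of 4 of the 8 genes. These matches describe letters only and were searched after the sequences had been seen.

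JUN encodes c-Jun, the strongest transcriptional activator of the Jun proteins. It stood at 30.2, 32.5 and 26.8 CPM in control libraries 1, 2 and 3 and at 128, 123 and 130 CPM in TGFB1 libraries 1, 2 and 3. All 3 treated libraries lay far above all controls, and the gap between the groups was far wider than the spread within either. The mean rose from 29.9 ± 2.86 to 127 ± 3.62 CPM (SD, n = 3 each), a log2 fold change of 2.09 ± 0.066 (SE) or 4.25-fold (edgeR adjusted p = 1.59e-20). Only 1.45% of tested genes had a higher log2 fold change.

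JUNB encodes a Jun protein that activates less strongly than c-Jun and can hold it in check. Its levels were 30.4, 30.6 and 32.2 CPM in control libraries and 129, 120.0 and 126 CPM in TGFB1 libraries. Controls were close together and again well below every treated library. The rise was 4.02-fold, from 31.1 ± 0.980 to 125 ± 4.56 CPM (log2 fold change 2.01 ± 0.061, edgeR adjusted p = 6.20e-21). In the GENCODE 29 annotation an exon of HOOK2, on the opposite strand, overlaps JUNB. The sources used here do not say whether the counter used strand, so reads of the overlap cannot be assigned with certainty. HOOK2 itself was 1.49-fold higher with TGF-β1, at 20.3 ± 2.29 against 13.7 ± 1.70 CPM (edgeR adjusted p = 3.92e-05).

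JUND encodes the Jun protein that is widely present in resting cells and slows growth in many settings. It moved the other way, from 118, 118 and 128 CPM in control libraries to 90.9, 90.3 and 89.7 CPM in TGFB1 libraries. The treated libraries were nearly level with one another, and each was below every control. The fall was 1.34-fold, from 121 ± 5.76 to 90.3 ± 0.596 CPM (log2 fold change −0.43 ± 0.053, edgeR adjusted p = 1.23e-07).

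FOS encodes c-Fos, the prototype of an immediate early gene, which a stimulus induces sharply but briefly. Control libraries gave 16.9, 17.3 and 16.8 CPM, and TGFB1 libraries gave 8.63, 9.90 and 8.60 CPM. The groups did not overlap, and each was tight. FOS fell 1.87-fold, from 17.0 ± 0.285 to 9.04 ± 0.741 CPM (log2 fold change −0.91 ± 0.104, edgeR adjusted p = 2.46e-08), the largest fall among the 10 genes. A lower log2 fold change was seen in 4.79% of tested genes.

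FOSB, whose protein resembles c-Fos and also exists in a short form that gene-level counts cannot separate, had the lowest level of the Fos genes in control libraries. It gave 57, 66 and 76 reads, or 4.19, 4.58 and 5.08 CPM, in control libraries and 134, 120 and 117 reads, or 9.11, 7.33 and 8.83 CPM, in TGFB1 libraries. Every treated library was above every control, and in TGFB1 libraries 1 and 3 FOSB had more reads than FOS. FOSB rose 1.81-fold, from 4.61 ± 0.446 to 8.42 ± 0.953 CPM (log2 fold change 0.86 ± 0.147, edgeR adjusted p = 1.76e-05).

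FOSL1 encodes FRA-1, a Fos protein without the strong activation domain of c-Fos that is often high in invasive carcinoma cells. Its levels were 20.5, 31.0 and 26.8 CPM in control libraries and 50.3, 40.2 and 57.1 CPM in TGFB1 libraries. The groups did not overlap, but relative to the mean its replicates were further apart than those of the other 9 genes. The SD was 5.27 CPM in control and 8.48 CPM in TGFB1 libraries, where read counting alone would give 1.35 and 1.82 CPM. FOSL1 rose 1.87-fold, from 26.1 to 49.2 CPM (log2 fold change 0.91 ± 0.177, edgeR adjusted p = 0.00437). Its adjusted p reached at most 0.0113 over the alternative settings.

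FOSL2 encodes FRA-2, the closest relative of FRA-1, and had the most counts of the 10 genes. It gave 211, 181 and 192 CPM in control libraries and 166, 158 and 163 CPM in TGFB1 libraries. Control 1, the lowest control library for FOSL1, was the highest for FOSL2. The fall was small, 1.20-fold, from 194 ± 15.3 to 162 ± 3.96 CPM (log2 fold change −0.26 ± 0.053, edgeR adjusted p = 0.000173). Read counting alone would give SDs of 3.68 CPM in control and 3.32 CPM in TGFB1 libraries, so the controls spread well beyond it. The groups did not overlap. FOSL1 and FOSL2 thus changed in opposite directions.

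BATF3 encodes a small leucine zipper protein without an activation domain, which pairs with Jun proteins and is best known from dendritic cells. Control libraries held 105, 117 and 134 reads (7.71, 8.12 and 8.95 CPM), and TGFB1 libraries held 358, 379 and 329 reads (24.3, 23.2 and 24.8 CPM). Every treated library was well over 2-fold above every control. BATF3 rose 2.91-fold, from 8.26 ± 0.631 to 24.1 ± 0.855 CPM (log2 fold change 1.54 ± 0.099, edgeR adjusted p = 1.39e-13), a rise exceeded among the 10 genes by those of JUN and JUNB. Its relative BATF had 0 counts in all 6 libraries, which allows a level of up to 0.0698 CPM in control and 0.0677 CPM in TGFB1 libraries (3 counts over each group, counting error only), and BATF2 had 1 read or none in each library.

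ATF3, a stress-induced factor that can repress or activate depending on its partner, stood at 27.3, 27.0 and 26.7 CPM in control libraries and at 27.0, 29.7 and 31.2 CPM in TGFB1 libraries. TGFB1 library 1 lay within the control range. The means were 27.0 ± 0.335 and 29.3 ± 2.09 CPM, and the difference did not pass (log2 fold change 0.12 ± 0.076, edgeR adjusted p = 0.214). JDP2, the Jun dimerization protein that recruits repressors to AP-1 sites, gave 20.3, 22.9 and 23.3 CPM in control libraries and 26.2, 24.7 and 26.9 CPM in TGFB1 libraries. It rose 1.17-fold, from 22.2 ± 1.61 to 25.9 ± 1.14 CPM (log2 fold change 0.22 ± 0.081, edgeR adjusted p = 0.0266). This was the weakest call of the 9. JDP2 no longer passed when control 1 was left out (edgeR adjusted p = 0.151). The same held without TGFB1 1 (edgeR adjusted p = 0.0753), without TGFB1 3 (edgeR adjusted p = 0.0744) and by DESeq2 (adjusted p = 0.0687). An antisense gene, AF111167.2, overlaps JDP2 in the GENCODE 29 annotation. As for JUNB, reads of that overlap cannot be assigned with certainty.

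Some of the genes lie side by side. FOS, JDP2 and BATF are consecutive protein-coding genes of chromosome 14 in RefSeq, and in these cells FOS fell, JDP2 rose slightly and BATF had 0 counts. TMED10, a cargo receptor gene on the other side of FOS, fell 1.32-fold (edgeR adjusted p = 2.40e-08). On chromosome 1, ATF3 and BATF3 are separated by 1 protein-coding gene, FAM71A, which had 0 counts. BATF3 rose, whereas ATF3 on one flank and NSL1, a kinetochore gene, on the other did not pass (edgeR adjusted p = 0.214 and 0.415). The neighbours were looked up after the values of the 10 genes had been seen.

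Levels of different genes can be compared only per length. On the scale of CPM per kb of the longest protein-coding transcript in GENCODE 29, JUND was highest in control cells, at 65.0 ± 3.09 CPM per kb, followed by FOSL2 at 29.0 ± 2.29. JUNB (17.1 ± 0.538) and FOSL1 (15.6 ± 3.16) came next and overlapped in range, as FOSL1 did with ATF3 (13.3 ± 0.165). JUN, BATF3 and FOS, at 8.43 ± 0.809, 8.43 ± 0.644 and 7.89 ± 0.132, could not be ordered beyond their spread. JDP2 (4.11 ± 0.298) and FOSB (1.22 ± 0.118) closed the list. With TGF-β1 the order was JUNB at 68.7 ± 2.51 CPM per kb, JUND at 48.4 ± 0.320, JUN at 35.8 ± 1.02, then FOSL1 at 29.5 ± 5.08, BATF3 at 24.6 ± 0.873 and FOSL2 at 24.2 ± 0.591, each of these 3 overlapping its neighbour. ATF3 (14.4 ± 1.03), JDP2 and FOS (4.80 ± 0.212 and 4.19 ± 0.343, overlapping) and FOSB (2.23 ± 0.253) followed. This order depended on the length used. Per kb of coding sequence FOSL2 was the highest of the 10 genes in both groups. It stood at 199 ± 15.7 CPM per kb in control and 166 ± 4.05 in TGFB1 libraries. In TGFB1 libraries the mean of JUN (128 ± 3.64) was then above that of JUNB (120.0 ± 4.38), but their ranges overlapped. In control libraries the coding-length order placed JUND after FOSL2, followed by ATF3 (49.7 ± 0.616) and JDP2 (42.5 ± 3.08). By its mean JUNB went down from rank 3 to rank 7. However, FOSL1 (32.1 ± 6.48), JUN (30.1 ± 2.88) and JUNB (29.8 ± 0.941) could not be ordered beyond their spread. In TGFB1 libraries it placed FOSB (8.31 ± 0.940) level with FOS (7.93 ± 0.650) within their spread.

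**Figure D2:**
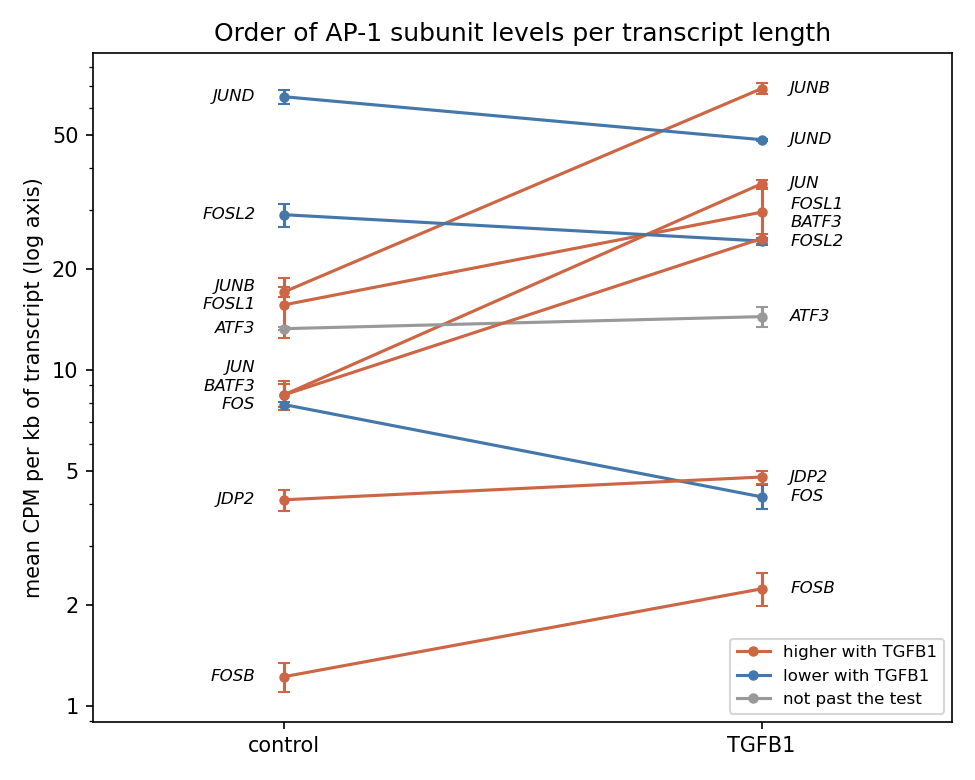
Mean CPM per kb of transcript (log axis) of the 10 genes in control and TGFB1 libraries, with SD over 3 libraries as error bars and colour for the test result. JUNB and JUN climb past FOSL2, while JUND, FOSL2 and FOS decline.

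The make-up of both families differed between the groups. JUND supplied 71.8 ± 1.14% of the summed CPM per kb of JUN, JUNB and JUND in control libraries and 31.7 ± 0.720% in TGFB1 libraries (n = 3 each). JUNB went from 18.8 ± 0.0288% to 44.9 ± 0.623% and JUN from 9.34 ± 1.14% to 23.4 ± 0.295%. In the Fos family FOSL1 went from 29.0 ± 5.34% to 48.8 ± 4.18%, FOSL2 from 54.0 ± 5.31% to 40.4 ± 3.03%, FOS from 14.7 ± 0.178% to 7.05 ± 1.24% and FOSB from 2.27 ± 0.204% to 3.71 ± 0.194%. No share overlapped between the groups. Each of the 7 differences had p = 0.1 in a two-sided exact permutation test over the 20 regroupings of 6 libraries, the smallest p that 3 against 3 allows, and an adjusted p of 0.1 over the 7 shares.

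**Figure D3:**
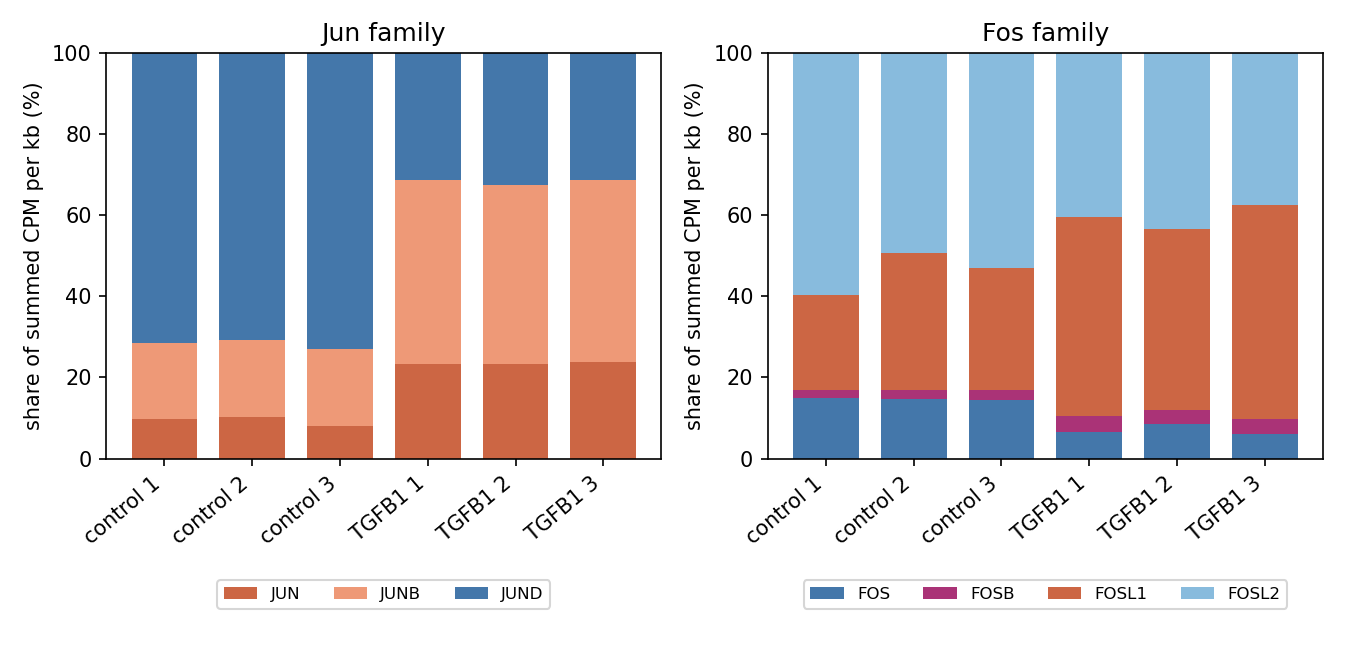
Share (%) of each gene in the summed CPM per kb of the Jun family (left) and the Fos family (right), 1 bar per library. JUND takes 70.9% to 73.1% of the Jun bars in control bars and 31.2% to 32.5% in TGFB1 bars, and the FOSL1 segment is larger in each TGFB1 library than in any control.

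Per kb of coding sequence the Jun shares moved alike, JUND from 66.0% to 25.9%, JUNB from 16.9% to 35.9% and JUN from 17.1% to 38.2%, whereas FOSL2 then supplied most of the Fos family in both groups, 79.3% and 68.5%, the FOSL1 share was 12.9% and 24.8%, and the FOS share 5.97% and 3.29%, a smaller drop in points than by transcript length. In control libraries 1, 2 and 3 the Jun genes together came to 88.5, 89.3 and 93.9 CPM per kb, and in TGFB1 libraries to 156, 149 and 154, which is 1.69 times the control mean. The Fos genes together came to 52.7, 54.7 and 53.8 CPM per kb in control and 61.3, 54.2 and 64.8 in TGFB1 libraries. These Fos sums overlapped between the groups, and the ratio of their means was 1.12 by transcript length but 0.969 by coding length, so no direction can be given. These sums are a description of RNA levels and were not tested.

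Other genes around AP-1 were taken from lists of known roles. Their counts are to be read beside the shares over all tested genes, 23.4% higher and 23.9% lower with TGF-β1. Of 33 other basic leucine zipper genes, including the possible partners ATF2 and ATF7, 25 were tested, 7 rose, 7 fell and 11 did not pass (median log2 fold change −0.01). NFE2L2, which encodes the oxidative stress regulator NRF2, fell 2.05-fold and CEBPD 1.81-fold, and CEBPB rose 1.29-fold.

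Of 22 kinases upstream of AP-1, 21 were tested, 5 rose, 8 fell and 8 did not pass (median −0.02). MAPK8, which encodes the Jun kinase JNK1, rose 1.53-fold, from 29.3 ± 1.48 to 44.7 ± 1.74 CPM. MAP2K6, an activator of p38 kinases, fell 2.25-fold, MAP3K1, which feeds the JNK branch, 1.59-fold and the ribosomal S6 kinase gene RPS6KA1 1.35-fold. The count of lower kinases dropped from 8 to 5 in DESeq2, with scaling by library size alone, without control 3 and without TGFB1 1. These are transcript levels and say nothing of kinase activity.

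All 6 genes of SRF and its cofactors, some of which act on FOS through serum response elements, were tested: 3 rose, 0 fell and 3 did not pass (median 0.16). The ternary complex factor ELK3 went up 4.57-fold, to 29.2 ± 1.02 CPM against 6.38 ± 0.627 CPM in control (edgeR adjusted p = 7.90e-17), MKL1, an actin-sensing SRF coactivator, 2.15-fold and SRF itself 1.25-fold. For ELK1 the levels were 79.7 ± 0.699 CPM in control and 74.8 ± 4.11 CPM in treated libraries, and the test was not passed (edgeR adjusted p = 0.214). FOS was lower in the same libraries, and a link between FOS and these genes was not tested.

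Of 23 other immediate early genes 20 were tested, 12 rose, 6 fell and 2 did not pass (median 0.49). IER3, a survival factor gene, rose from 14.1 ± 1.28 to 72.2 ± 1.38 CPM (5.12-fold, edgeR adjusted p = 1.64e-20), and ZFP36L1, which encodes an mRNA decay factor, 2.25-fold. The nuclear receptor gene NR4A3 fell 3.12-fold, from 32.7 ± 2.39 to 10.4 ± 0.387 CPM, and the kinase gene SGK1 1.75-fold. Over all tested genes 23.4% rose and 23.9% fell, with a median of 0.00033, so this list leaned upward where all genes did not.

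Of 16 genes for AP-1 turnover and cofactors, all tested, 2 rose, 6 fell and 8 did not pass (median −0.06). CITED2, a competitor for the coactivators p300 and CBP, fell 3.07-fold, from 54.5 ± 3.49 to 17.7 ± 0.641 CPM (edgeR adjusted p = 8.95e-17). CUL4A and DDB1, scaffold subunits of a ubiquitin ligase that can target c-Jun, fell 1.54-fold and 1.19-fold. TRIP6, a LIM protein that acts as a coactivator of AP-1, fell 1.20-fold.

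Of 34 genes known as AP-1 targets in other systems 22 were tested, 15 rose, 3 fell and 4 did not pass (median 0.74). CD44, the hyaluronan receptor, went up 2.56-fold, to 505 ± 18.4 CPM against 197 ± 1.61 CPM in control (edgeR adjusted p = 1.23e-19). The rise of the cytokine gene IL11 was 10.1-fold. The classic AP-1 target genes MMP1, MMP3, MMP9, MMP10 and MMP13, which encode secreted metalloproteinases, had too few counts to be tested, at 0 to 6 reads in any library and a group mean of 0.181 CPM or lower. Several of these targets are also targets of SMADs, and fibroblast markers moved with them: 5 of 10 were tested and all 5 rose. FAP (0 to 1 reads in control, 12 to 22 in TGFB1 libraries) and THY1 (4 to 12 and 11 to 21 reads) passed the filter only through TGFB1 libraries. The count of 5 is therefore partly set by the filter. All 10 markers together summed to between 91.0 and 95.0 CPM in any control library and between 120.1 and 136 CPM in any treated one. Most of that sum was the collagen gene COL1A1, which went from 81.3 ± 2.64 to 105.2 ± 5.39 CPM, and PDGFRB, DCN, FAP and THY1 were the other 4 that rose. The fibroblast collagens COL1A2 and COL3A1 had 0 counts in every control library and at most 2 in any TGFB1 library. The part of fibroblast markers in the target counts was not tested.

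**Figure D4:**
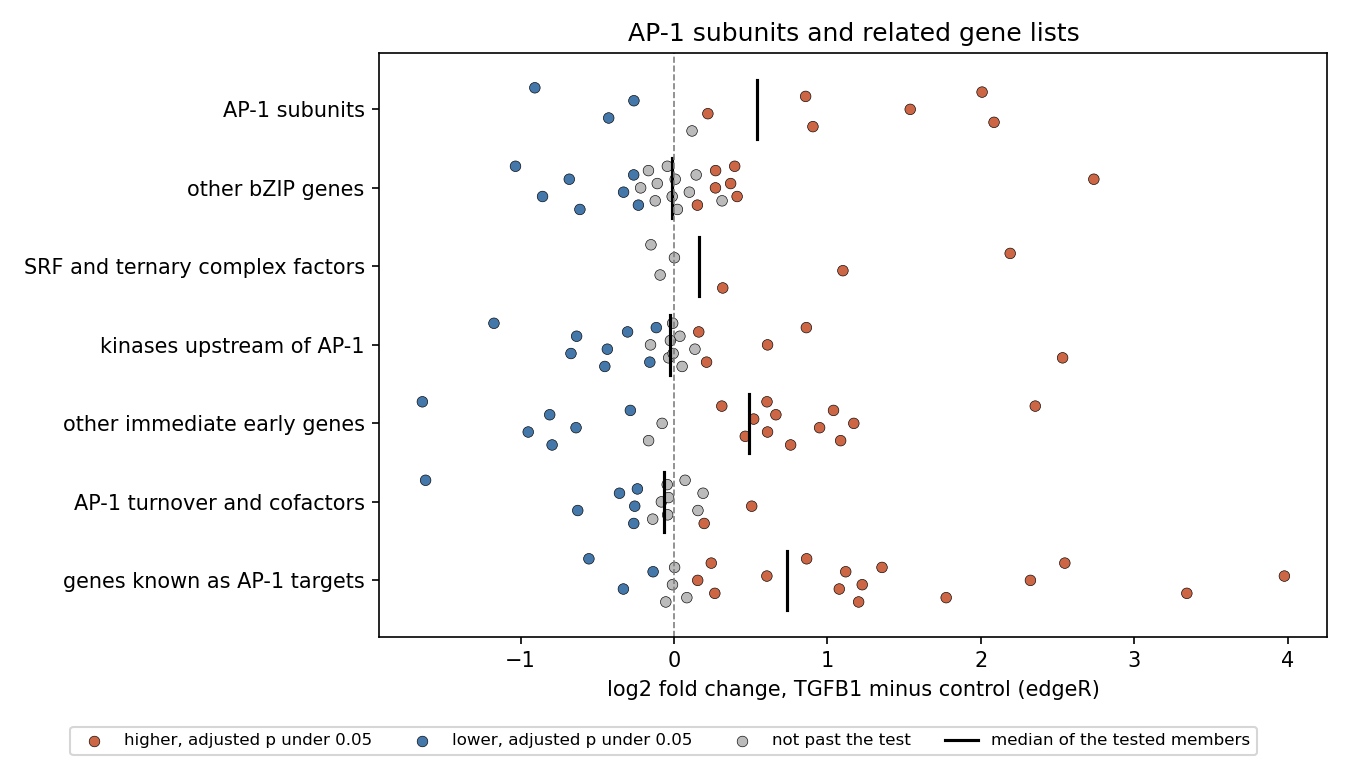
Log2 fold changes (TGFB1 minus control, edgeR) of every tested gene in the AP-1 subunit list and 6 related lists, 1 point per gene, coloured by the test result, with the list's median as a black bar. The AP-1 subunits spread from −0.91 in FOS to 2.09 in JUN, and their median of 0.54 lies near that of the other immediate early genes (0.49).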

How the data were processed

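For each library the authors deposited raw read counts, 1 whole number for each gene symbol. The submitters' processing notes name TopHat2 2.0.11, TopHat, HTSeq, hg19 and GRCh37, without saying what each was used for. The sources used here give neither annotation, strand setting nor read filters. The closing lines of each table (no feature 5.44% to 5.98%, ambiguous 9.01% to 9.43%, not unique 12.0% to 12.5% of all lines) are not genes and stayed out of totals and tests, so reads shared by several genes are missing. The chi-square per gene between replicates was 1.76 to 4.34, above sampling noise, and each library counted as 1 replicate.

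Genes passing filterByExpr (minimum count 10, minimum total 15) were scaled by TMM and tested with edgeR 4.0.16 (robust glmQLFit, glmQLFTest) in R 4.3.3, Benjamini-Hochberg adjusted over all 14897 genes. Low-count genes of the lists can pass the filter through a single group alone, so counts of risen or fallen genes partly reflect the filter. SE came from the log2 fold change and its F statistic. In counts simulated with these library sizes (14438 genes tested), 62% of genes changed 1.25-fold and 94% of those changed 2-fold were recovered. Of unchanged genes 0.0843% were called. The simulation changed only 50 genes at each fold, all of at least 1 CPM in control. Its spread came from the trend over all genes. In the real comparison 47.3% of genes passed, so these rates are not its power or error rate. Per-length levels used the longest GENCODE 29 protein-coding transcript. Intervals and floors cover counting error only. The AP-1 genes and the other lists were chosen with earlier results of these data known. Named were all 10 AP-1 genes and, per other list, up to 4 tested genes with the lowest p (up to 3 for markers). Some genes that the rule allows are not reported here. Genes outside it (ATF2, ATF7, BATF and its relatives, untested markers and metalloproteinases, KRT8, neighbouring genes) were chosen after their values were seen. Alternatives were DESeq2 1.42.0, limma-voom (limma 3.58.1), other scalings and filters, the replicate number as a block, other lengths and leaving out each library.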

Additional observations from a re-analysis of the deposited data

How the results depend on the processing

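The 10 AP-1 genes were refitted under 14 alternatives each, giving 140 values, of which 136 kept both direction and side of the threshold. The other 4 were all for JDP2, whose call ended in DESeq2 and without control 1, TGFB1 1 or TGFB1 3, as given above, while its log2 fold change stayed between 0.16 and 0.28. The log2 fold change of JUN ranged from 2.01 to 2.15, that of JUNB from 1.99 to 2.07, that of BATF3 from 1.49 to 1.60, that of FOSL1 from 0.76 to 1.04, that of FOS from −0.98 to −0.85, and that of ATF3 from 0.07 to 0.17 (adjusted p 0.0624 to 0.486). The count of AP-1 genes that rose was 5 or 6 and of those that fell 3 in every alternative run. All 63 recomputed share differences kept their direction. As no share overlapped between the groups, leaving out a library could not have reversed any of them. Adding ATF3, BATF3 and JDP2 to the Fos family left the Jun shares unchanged by design. For these settings the kept direction is therefore no check. Over all genes, scaling by library size alone shifted the median log2 fold change by 0.0567 and gave 4216 higher and 2879 lower genes, against 3483 and 3561. With 1 CPM required in 3 libraries, 3 fibroblast markers in place of 5 rose and LGR5 was no longer tested. Without control 2, 1 gene of the SRF list, MKL2, fell in place of 0. Deviations from the group means of control and TGFB1 libraries with the same replicate number correlated at 0.0315, −0.254 and −0.0495 over 11422 genes. Those with different numbers correlated at −0.225 to 0.268, highest for control 2 with TGFB1 3 (0.268) and control 1 with TGFB1 2 (0.231). Deviations from a mean of 3 libraries depend on one another, so these values cannot decide whether libraries were paired. With the replicate block 6 AP-1 genes rose and 3 fell, as without it, and over all genes 3355 rose and 3420 fell. Depth limits FOSB most, at 57 to 134 reads per library.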
